A study of Mus musculus with 6 samples.

Results

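The 10 genes described here encode heat shock proteins of the cytosol and nucleus, together with small heat shock proteins, in whole mouse hearts at stage E13.5. They were chosen by symbol among the 23284 genes listed for each library, and all 10 were found: Hspa1a, Hspa1b, Hspa8, Hsph1, Dnajb1, Hsp90aa1, Hsp90ab1, Hspb1, Hspb7 and Cryab. The Tfam KO group had the genotype Tfam fl/fl; Nkx2.5 IRES-Cre/+ and the Control group the genotype Tfam fl/+; Nkx2.5 IRES-Cre/+, on strain C57BL/6. Tfam encodes a protein that coats mitochondrial DNA and without which that DNA is neither transcribed nor replicated. Cre was active in the cardiac lineage in both groups, so a Control heart kept 1 intact Tfam allele there, and cells outside that lineage kept both alleles in either group. Each group had 3 libraries of poly(A) RNA, each made from 5 pooled hearts.

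Heat shock proteins are chaperones that bind unfolded or partly folded proteins. The Hsp70 proteins bind short exposed stretches of a client and release them in an ATP cycle, with J-domain proteins delivering clients and exchange factors freeing the nucleotide, whereas Hsp90 acts later, on clients such as kinases and steroid receptors. Small heat shock proteins hold unfolding clients without ATP and are abundant in muscle, where several sit on the sarcomere. In a heat shock response, the transcription factor HSF1 binds repeats of nGAAn in promoters (heat shock elements) and induces many of these genes, Hspa1a and Hspa1b among the most inducible. The comparison asked whether this set of genes differed between Tfam KO and Control hearts.

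The libraries held between 12370092 and 18078620 reads. Their overall scale differed. On the log2 scale the median of the 10807 tested genes was 0.28 higher in Tfam KO as deposited and 0.0024 higher once size factors (for each library, the median ratio of its genes to their means over the 6 libraries) had been divided out, and changes are read against that shift. Size factors of the Tfam KO libraries were 1.17, 0.925 and 1.33 and those of the Control libraries 0.815, 0.867 and 1.01. The share of reads on the ribosomal RNA precursor Rn45s was 25.4%, 31.2% and 14.95% in Tfam KO and 32.5%, 31.6% and 27.8% in Control. The part of this share in the scale was not tested. Tfam was listed at 3.97, 4.77 and 6.22 FPKM in Tfam KO and 4.64, 5.55 and 6.62 FPKM in Control, groups that overlapped, so the targeted gene is a weak check of the labels (log2 fold change -0.15, limma adjusted p = 0.651, and -0.43, adjusted p = 0.140 with size factors). FPKM is a read count divided by the length of the transcript and by the total of the library.

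Promoter sequences are shown because heat shock elements are what defines an HSF1-type response. Only those of the 4 members whose window held a match are printed. RefSeq windows (GRCm38.p6, 250 bases before to 50 bases after a transcription start) were at hand for 6 of the 10 members. The runs printed are the 250 bases before the start, 5′ to 3′ on the strand of the gene, with capitals marking matches of GAANNTTC or TTCNNGAA, a pair of inverted units of a heat shock element.
Hspa1a, chr17:34972157-34972406, minus strand: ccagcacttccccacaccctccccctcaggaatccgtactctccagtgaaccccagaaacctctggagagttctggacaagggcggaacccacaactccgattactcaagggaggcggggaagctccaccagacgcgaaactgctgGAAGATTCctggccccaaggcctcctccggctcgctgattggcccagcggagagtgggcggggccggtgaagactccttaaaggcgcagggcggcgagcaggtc
Hspa1b, chr17:34959239-34959488, minus strand: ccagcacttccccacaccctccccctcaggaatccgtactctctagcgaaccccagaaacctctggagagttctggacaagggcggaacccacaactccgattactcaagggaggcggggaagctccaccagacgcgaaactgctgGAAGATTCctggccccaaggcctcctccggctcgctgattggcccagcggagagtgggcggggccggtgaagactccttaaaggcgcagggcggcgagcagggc
Hsph1, chr5:149636337-149636586, minus strand: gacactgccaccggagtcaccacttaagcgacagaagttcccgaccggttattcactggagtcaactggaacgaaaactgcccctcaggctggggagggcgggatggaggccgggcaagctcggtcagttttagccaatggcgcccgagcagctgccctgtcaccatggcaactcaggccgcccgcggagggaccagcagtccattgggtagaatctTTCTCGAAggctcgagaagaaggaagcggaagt
Hspb1, chr5:135887669-135887918, plus strand: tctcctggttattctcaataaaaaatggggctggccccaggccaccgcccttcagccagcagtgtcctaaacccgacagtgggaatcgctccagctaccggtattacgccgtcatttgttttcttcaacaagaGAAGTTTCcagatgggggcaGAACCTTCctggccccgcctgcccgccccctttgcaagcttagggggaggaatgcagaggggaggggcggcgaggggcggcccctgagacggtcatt

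The inducible Hsp70 genes lie next to each other and their upstream runs were identical at 247 of 250 bases. Both held GAAGATTC, which began 104 bases before the start. Hspb1 held 2 matches, GAAGTTTC at 117 and GAACCTTC at 97 bases before its start, and Hsph1 held TTCTCGAA at 33 bases. A second listed start of Hsph1 put that match at 54 bases. The pair motif was found in the windows of 4 of the 6 members, Hspa1a, Hspa1b, Hsph1 and Hspb1. The windows of Dnajb1 and Hspb7 held no match. Of all 32841 windows, 15.1% held the pair motif, and of all 27018 gene symbols, 4587 had a window with it. The longer motif of 3 units (GAANNTTCNNGAA or TTCNNGAANNTTC, which contains the pair) was in 0.603% of all windows. Among the 6 members with a window it was only in Hsph1, from base 37 of the transcript (16 from the second start), in capitals here.
Hsph1, chr5:149636287-149636316, minus strand: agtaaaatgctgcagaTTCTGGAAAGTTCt
No member window held TGATGNAAT or its reverse complement ATTNCATCA, the composite element read by ATF4 and C/EBP proteins, which was in 0.965% of all windows. Both strands were searched. A match of letters is not a binding site, and no match says only that these letters were not in the window.

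The constitutive chaperones dominated the set in both groups. Over the 6 libraries, the mean was 1070.9 FPKM for Hsp90ab1, 692 for Hspa8, 279 for Hsp90aa1, 215 for Hspb7, 143 for Cryab, 136 for Hspb1, 16.6 for Hsph1, 6.63 for Dnajb1, 0.294 for Hspa1b and 0.141 for Hspa1a. Neighbours in this order were in the same order in all 6 libraries, except that Hsp90aa1 exceeded Hspb7 in 5 of 6, Cryab exceeded Hspb1 in 3 of 6 and Hspa1b exceeded Hspa1a in 5 of 6. Cryab and Hspb1 thus did not differ in level beyond their spread. The plot of the members' FPKM by library shows this range on both scales.

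**Figure D1:**
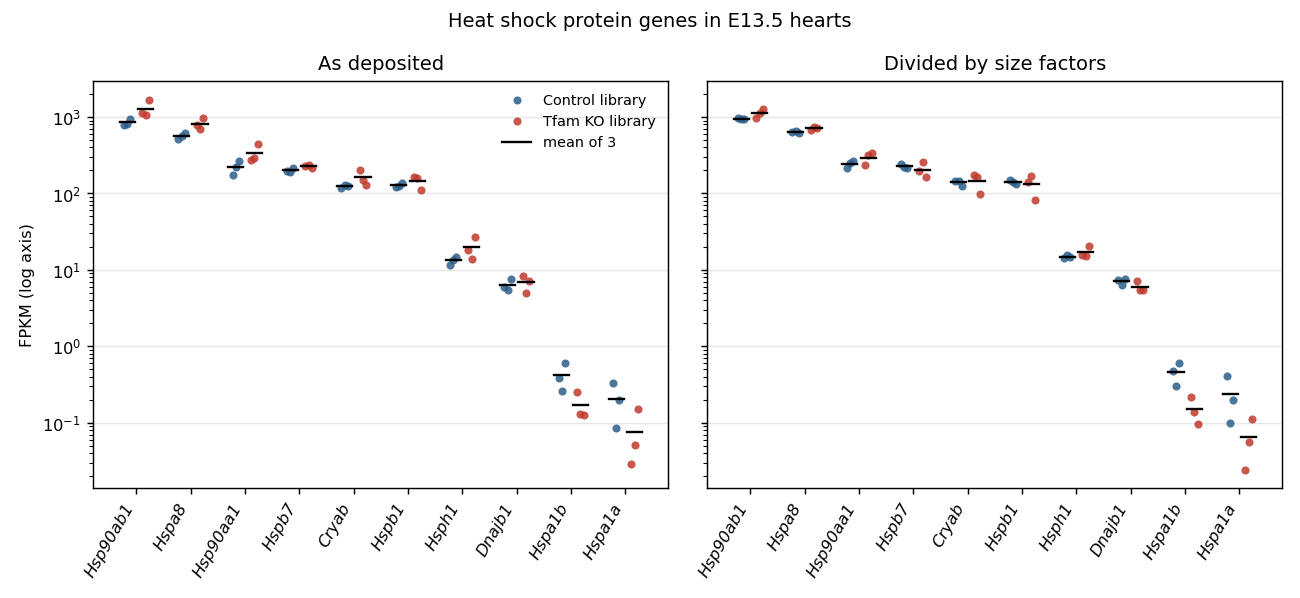
FPKM of the 10 genes in each library on a log axis, as deposited (left) and divided by size factors (right), with Control libraries in blue, Tfam KO libraries in red and a black line at the mean of 3 libraries. As deposited, the Tfam KO libraries lie above all Control libraries for Hsp90ab1, Hspa8, Hsp90aa1, Hspb7 and Cryab; with size factors this holds for Hspa8 alone, while Hspa1b is lower in all Tfam KO libraries on both scales.

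None of the 8 members that reached a mean of 1 FPKM passed the test in either direction. With limma and Benjamini-Hochberg adjustment over the 10807 genes at a threshold of 0.05, 0 of 8 were called higher as deposited, where 6.21% of all tested genes were, and 0 of 8 lower, where 1.16% were. With size factors the count was again 0 of 8 each way, against 1.99% higher and 2.6% lower of all tested genes. As deposited, the limma p-values rested on the variance trend over all genes and not on each gene's own spread between pools. Unadjusted p-values were under 0.05 for 4 higher members as deposited (Hspa8, Hsp90aa1, Hsp90ab1 and Hsph1) and for 0 with size factors. Over all tested genes this share was 23.3% higher and 2.53% lower as deposited, 8.49% higher and 11% lower with size factors, and 8.91% higher and 11.7% lower by limma-voom, and the unadjusted counts of other lists are to be read against it. Limma-voom on reads called 0 of 8 (0 at an unadjusted p under 0.05), against 2.66% higher and 4.2% lower of all tested genes. Without Tfam KO replicate 2, whose size factor lay among those of Control, 3 of 8 were called higher as deposited (Hsp90ab1, Hspa8 and Hsph1), where 21% of all tested genes were. Counts of other lists as deposited without that library are to be read against the same share. The median log2 fold change of the 8 was 0.42 as deposited and 0.093 with size factors, beside 0.28 and 0.0024 over all tested genes. Hspa1a and Hspa1b, both under the filter, are described from their reads.

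Hspa8 encodes the constitutive Hsp70 of the cytosol. It was measured at 781, 695 and 969 FPKM in the Tfam KO libraries and 516, 568 and 623 FPKM in Control (815 ± 140.1 against 569 ± 53.6, SD, n = 3 each). The groups did not overlap, but Tfam KO replicates 1 and 3 also had the largest size factors. After size factors the values were 668, 751 and 728 against 633, 655 and 619 FPKM, still without overlap and much closer together. As deposited, the log2 fold change came to 0.51 (SE 0.21, limma adjusted p = 0.108), and to 0.17 with size factors (SE 0.14, adjusted p = 0.561). The interval of the latter, 0.912 to 1.38 as a fold (95%), covers no change.

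Hsph1 encodes Hsp110, an exchange factor for Hsp70 that itself holds unfolded clients. It was measured at 18.2, 13.9 and 27.3 FPKM in Tfam KO and 11.6, 13.7 and 14.7 FPKM in Control. Tfam KO replicate 3 stood well above the others, and Tfam KO replicate 2 lay within the Control range. With size factors the difference was 0.17 on the log2 scale (SE 0.14, limma adjusted p = 0.552), with a 95% interval of 0.914 to 1.39-fold. Dnajb1, the J-domain partner known as Hsp40, was measured at 8.38, 5.02 and 7.16 FPKM in Tfam KO and 6.06, 5.53 and 7.60 FPKM in Control. These groups overlapped and the sign depended on the scale, with a log2 fold change of 0.073 (adjusted p = 0.832) as deposited and -0.22 (adjusted p = 0.423) with size factors. Dnajb1 rested on 155 to 311 reads per library.

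Hspa1a and Hspa1b, the inducible Hsp70 genes, had few reads in every library. Hspa1a had 1, 2 and 7 reads in Tfam KO and 13, 3 and 10 in Control, and Hspa1b had 9, 5 and 6 against 15, 9 and 31. Neither gene passed 1 FPKM in any library, although Hspa8 was at 516 FPKM or more in the same libraries. Hspa1b was listed at 0.255, 0.129 and 0.128 FPKM in Tfam KO and 0.383, 0.259 and 0.610 FPKM in Control, without overlap and lower in Tfam KO; of all tested genes, 2.34% showed that order as deposited and 12.2% with size factors. The tested genes all passed the filter of 1 FPKM, which Hspa1b did not, so these shares are not of genes at its level. Hspa1a overlapped between the groups. Since the pair share most of their sequence, their reads were also added, giving 10, 7 and 13 reads in Tfam KO and 28, 12 and 41 in Control. In CPM, reads scaled to the library total, this was 0.797, 0.507 and 0.778 against 2.01, 0.970 and 2.27.

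Over the groups, 30 of 43065392 reads in Tfam KO and 81 of 44380092 in Control fell on the pair, a rate ratio of 0.382 (exact 95% interval 0.242 to 0.587). This interval covers counting error only. It says nothing of the spread between pools. With that spread the pair missed the threshold: in a limma fit without the filter on low values, the summed pair, entered as 1 of 17875 genes, had a log2 fold change of -0.37 (SE 0.12, adjusted p = 0.213). Entered separately among 17876 genes, Hspa1b had -0.27 (SE 0.099, adjusted p = 0.249) and Hspa1a -0.16 (SE 0.081, adjusted p = 0.345). In the unfiltered fit with size factors the adjusted p was 0.138 for Hspa1b and 0.351 for Hspa1a. Unadjusted, the limma p was 0.0241 as deposited and 0.00641 with size factors for Hspa1b, and 0.0800 and 0.0536 for Hspa1a. Of the 17876 genes, 418 as deposited and 1477 with size factors were lower at an unadjusted p under 0.05. The plot of their reads by library shows Control replicates 1 and 3 as the highest libraries, and Control replicate 2 next to Tfam KO replicate 3. Those are reads not scaled to the library total. In CPM every Control library lay above every Tfam KO library, the closest being Control replicate 2 (0.970) and Tfam KO replicate 1 (0.797). With size factors the summed FPKM of the pair kept that order, at 0.243, 0.195 and 0.208 in Tfam KO against 0.879, 0.399 and 0.803 in Control. Of all tested genes, 2.34% had that order as deposited and 12.2% with size factors. The tested genes all passed the filter that this pair did not, so these shares are not of genes at its level.

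**Figure D2:**
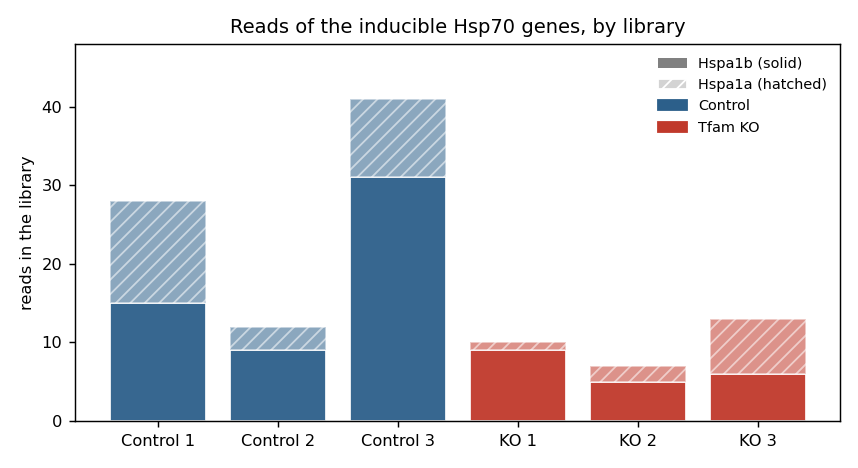
Reads on Hspa1b (solid) and Hspa1a (hatched, stacked) in each library, with Control in blue and Tfam KO in red. The stacks reach 28, 12 and 41 reads in Control and 10, 7 and 13 reads in Tfam KO.

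Among the 8 tested members, the cytosolic Hsp90 isoforms had the largest log2 fold changes of FPKM + 1 as deposited. Hsp90ab1, the constitutive isoform, was measured at 1129, 1055 and 1695 FPKM in Tfam KO and 796, 810.0 and 939.9 FPKM in Control (1293 ± 350.2 against 849 ± 79.2, SD, n = 3 each). All Tfam KO libraries lay above all Control libraries, with Tfam KO replicate 3 far above the other two. On the log2 scale the difference was 0.58 (SE 0.20, limma adjusted p = 0.0583). Size factors brought the values to 965, 1140.0 and 1274 against 977, 935 and 934 FPKM, and the groups then overlapped, since Tfam KO replicate 1 fell below Control replicate 1 (log2 fold change 0.24, SE 0.16, adjusted p = 0.459, 95% interval 0.926 to 1.50-fold).

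Hsp90aa1, the more stress-inducible isoform, was measured at 273, 292 and 448 FPKM in Tfam KO and 174, 220.0 and 268 FPKM in Control. Tfam KO replicate 3 was again the highest library, and Tfam KO replicate 1 lay just above Control replicate 3. With size factors the values were 233, 316 and 336 against 214, 254 and 266 FPKM, which overlapped. Hsp90aa1 had a log2 fold change of 0.60 as deposited (SE 0.22, limma adjusted p = 0.0689) and of 0.26 with size factors (SE 0.17, adjusted p = 0.447), with a 95% interval of 0.926 to 1.55-fold. The ratio of Hsp90aa1 to Hsp90ab1 within a library, which no scaling can move, was 0.241, 0.277 and 0.264 in Tfam KO and 0.218, 0.272 and 0.285 in Control. The balance of the isoforms therefore overlapped between the groups (exact permutation test, two-sided, p = 0.9).

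By the root mean square distance between centred log2(FPKM + 1) profiles over the 6 libraries with size factors, the tested genes most like Hsp90aa1 were Zfp280c (0.0387), Cwc27 (0.0396) and Scfd1 (0.0416). Those most like Hsp90ab1 were Abcd4 (0.0424), Polr2h (0.0426) and Zswim6 (0.0434). None of these 6 genes is a listed chaperone, and their log2 fold changes with size factors ran from 0.19 (Polr2h) to 0.31 (Scfd1). Adding 1 FPKM shrinks the differences of low genes such as Abcd4, so such likeness depends on it. By limma-voom on reads the log2 fold change was 0.40 for Abcd4 and 0.24 for Hsp90ab1.

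Among the small heat shock proteins, Hspb1 and Hspb7 had log2 fold changes below that of the median tested gene on both scales, and Cryab one slightly above it. Hspb7, a cardiac and skeletal muscle protein that binds filamin, was measured at 228, 238 and 218 FPKM in Tfam KO and 195, 192 and 217 FPKM in Control. Tfam KO was higher without overlap, but by less than 1 FPKM between Tfam KO replicate 3 and Control replicate 3. Cryab, αB-crystallin, which binds desmin and titin, was measured at 204, 152 and 129 FPKM in Tfam KO and 119, 127 and 127 FPKM in Control, again just short of overlap. Hspb1, known as Hsp25 in mice, was measured at 165, 158 and 111 FPKM in Tfam KO and 123, 124 and 135 FPKM in Control, and the groups overlapped. Control libraries of Cryab and Hspb1 were close together, and the spread came from Tfam KO.

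As deposited, Tfam KO replicate 3, the highest library for Hsp90ab1, Hsp90aa1, Hspa8 and Hsph1, was the lowest Tfam KO library for Hspb1, Hspb7 and Cryab. With size factors, Cryab stood at 175, 165 and 97.2 FPKM in Tfam KO and 146, 147 and 126 in Control. Hspb1 stood at 141, 171 and 83.2 against 151, 143 and 134 FPKM, and Hspb7 at 195, 257 and 164 against 239.7, 222 and 216 FPKM. In all of these, Tfam KO replicate 3 was the lowest of the 6 libraries and all groups overlapped. The log2 fold changes with size factors were 0.017 for Cryab (SE 0.21, limma adjusted p = 0.975), -0.18 for Hspb1 (SE 0.22, adjusted p = 0.736) and -0.16 for Hspb7 (SE 0.17, adjusted p = 0.672). As deposited they were 0.35 (adjusted p = 0.279), 0.16 (adjusted p = 0.618) and 0.18 (adjusted p = 0.579), so the sign for Hspb1 and Hspb7 turned with the scale.

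The make-up of the libraries was read from lists of marker genes. The summed FPKM with size factors of 9 cardiac muscle markers (Tnnt2, Tnni3, Tnnc1, Myh6, Myh7, Myl7, Actc1, Actn2 and Ryr2) was 7304, 11640 and 8236 in Tfam KO and 11276, 12601 and 10006 in Control. Among Tfam KO libraries it was highest in replicate 2, as Hspb1 and Hspb7 were, whereas Cryab was highest in replicate 1, where the sum was lowest. Hspb1, Hspb7 and Cryab were all lowest in replicate 3, where the marker sum was not. All 9 were present, and 0 of 9 were called as deposited or with size factors (limma, unadjusted p under 0.05 for 1 higher as deposited and 3 lower under size factors, and 1 called lower by limma-voom). The sum of 8 red blood cell genes, of which Hba-a1 was listed at 0, was 5607, 3339 and 10165 in Tfam KO and 12938, 6244 and 8555 in Control. Of the other marker lists, 3 of 7 mesenchyme genes were higher as deposited and 0 with size factors, and 2 of 3 tested genes on the smooth muscle list (Acta2 and Cnn1) were lower with size factors. The summed lung and liver markers stood at 0.183, 2.72 and 0.203 in Tfam KO against 5.86, 7.99 and 2.38 in Control with size factors, overlapping, and the liver gene Alb was called lower as deposited (log2 fold change -1.04, limma adjusted p = 3.13e-05; -1.15, adjusted p = 0.142 with size factors) and by limma-voom. In Tfam KO replicates 1 and 3 that sum was 0.183 and 0.203, so Alb reached the filter through the other libraries. Acta1, on the skeletal muscle list, was called lower with size factors, and 4 of the 6 genes on that list were below the filter. Emcn of endothelium was called higher as deposited. Of the macrophage genes, Cx3cr1 was called higher as deposited and Lyz2 lower under size factors. Sftpc of lung and Myf5 of skeletal muscle were listed at 0. A call on a marker list does not show which cells the RNA came from. The part of these cells in the members' values was not tested. In whole hearts, fewer cells of a type and less RNA per cell cannot be told apart.

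Members whose groups did not overlap were counted next. As deposited, 5 of 8 tested members lay higher in all Tfam KO libraries, where 25.6% of all tested genes did so. With size factors only Hspa8 did, 1 of 8, where 11.8% of all tested genes lay higher and 12.2% lower. The plot of log2 fold changes sets both scales side by side.

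**Figure D3:**
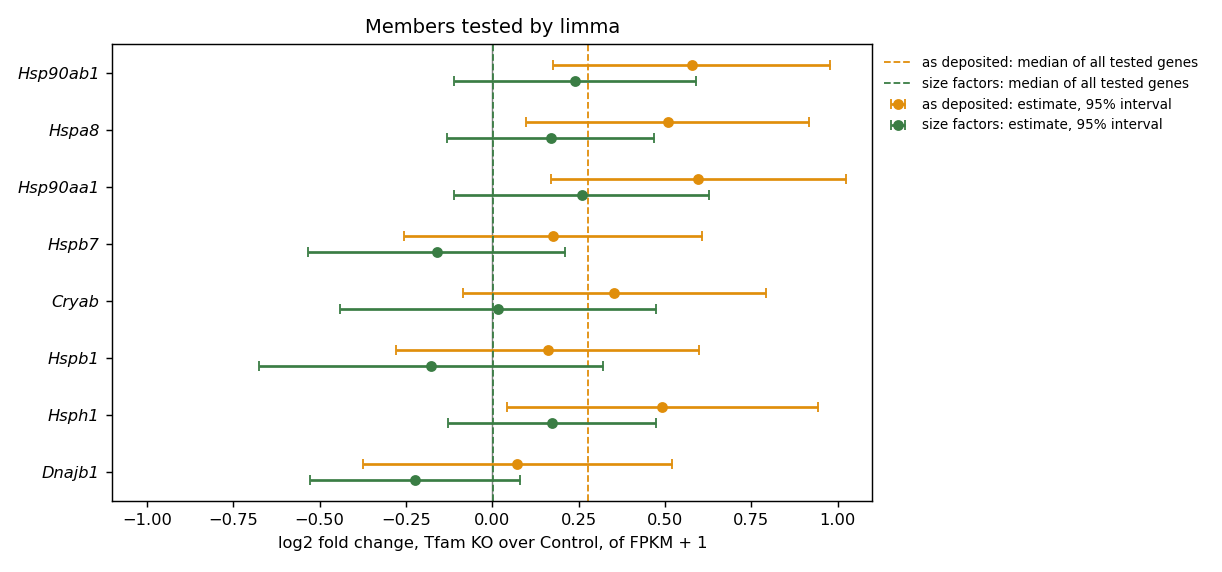
Log2 fold change of FPKM + 1, Tfam KO over Control, with its 95% interval from limma, for the 8 tested members, as deposited (orange) and with size factors (green), and dashed lines at the median of all tested genes. All 8 green intervals cross 0, and all 8 orange intervals include the orange median of 0.28.

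As a share of the reads on listed genes other than Rn45s, a measure that removes that precursor and needs no size factor, the 10 members took 1.21%, 1.31% and 1.34% in Tfam KO and 1.11% in each Control library. All Tfam KO libraries were higher, but how many of all tested genes had that order on this measure was not computed. With size factors, 11.8% of all tested genes lay higher in all Tfam KO libraries, and Hsp90aa1 and Hsp90ab1 overlapped. Hsp90aa1 and Hsp90ab1 together took 0.685%, 0.762% and 0.867% against 0.622%, 0.626% and 0.644%, and Hspa8 took 0.312%, 0.320% and 0.320% against 0.271%, 0.282% and 0.271%. For the 3 small heat shock proteins the shares were 0.194%, 0.215% and 0.134% against 0.198%, 0.187% and 0.180%, which overlapped. The higher share of the set was that of Hsp90aa1, Hsp90ab1 and Hspa8. These shares move with every other gene in the library, carry no test, and rest on 58250 to 142558 reads of the members per library.

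The heat shock factors and the wider set of HSF1 targets gave no call by limma on the 6 libraries, as deposited or with size factors. Among 7 genes for heat shock factors and their regulators, 3 were above the filter, and 0 were called on either scale by limma or by limma-voom, with 0 at an unadjusted p under 0.05. Hsf1 was measured at 7.19, 4.88 and 5.01 FPKM in Tfam KO and 4.77, 4.25 and 4.91 FPKM in Control (log2 fold change 0.23, limma adjusted p = 0.479, and -0.051, adjusted p = 0.903 with size factors). Hsf2, a related factor, and Hsbp1, a small protein that binds HSF1, had log2 fold changes with size factors of 0.11 (adjusted p = 0.777) and -0.20 (adjusted p = 0.366).

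Of 21 other genes known as HSF1 targets, all were tested and 0 were called on either scale, with 5 higher as deposited and 2 lower under size factors at an unadjusted p under 0.05, and 1 called lower by limma-voom. Their log2 fold changes had a median of 0.38 as deposited, and of 0.066 with size factors, and 14 of 21 were positive with size factors. Without Tfam KO replicate 2, 5 of 21 were called higher as deposited, where 21% of all tested genes were, and without Tfam KO replicate 1, 1 was called lower with size factors. With size factors the values furthest from 0 were both negative. Ier5, an immediate early gene that acts on HSF1, was measured at 5.02, 3.52 and 3.46 FPKM in Tfam KO and 5.75, 4.45 and 6.04 FPKM in Control (log2 fold change -0.36, limma adjusted p = 0.272 as deposited, and -0.64, adjusted p = 0.0610 with size factors; limma-voom adjusted p = 0.0190). Bag3, an exchange factor that ties Hsp70 to small heat shock proteins and is needed in heart muscle, stood at 25.6, 21.6 and 22.0 FPKM against 23.3, 21.2 and 27.4 FPKM (-0.049, adjusted p = 0.887 as deposited, and -0.37, adjusted p = 0.184 with size factors).

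On the 6 libraries, the partners of these chaperones gave few calls and none that held on both scales. Of 34 tested genes of the Hsp70 family and its J-domain and exchange partners, 0 were called on either scale by limma or by limma-voom (9 higher as deposited, and 2 higher and 8 lower with size factors, at an unadjusted p under 0.05), with a median of 0.38 as deposited and 0.070 with size factors. Without Tfam KO replicate 2, 8 of 34 were called higher as deposited, where 21% of all tested genes were. Leaving out Control replicate 2 gave 1 lower with size factors. The largest values with size factors were those of Bag6 (-0.47, adjusted p = 0.168) and of the ubiquitin ligase Stub1, which marks Hsp70 clients for degradation (-0.45, adjusted p = 0.154).

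Among 20 Hsp90 co-chaperones, 1 was higher (Ppid, a cyclophilin, named after its value was seen) and 1 lower (Fkbp8) as deposited, and 1 was lower with size factors (Unc45b, the chaperone of muscle myosin). Ppid had a log2 fold change of 0.75 (limma adjusted p = 0.0231) as deposited and 0.42 (adjusted p = 0.109) with size factors. Fkbp8, an anchored immunophilin of the mitochondrial outer membrane, ran from 21.9 to 50.9 FPKM in Tfam KO and from 37.3 to 60.4 FPKM in Control (-0.72, adjusted p = 0.0316, and -1.05, adjusted p = 0.0776 with size factors). Unc45b had -0.20 (adjusted p = 0.538) as deposited and -0.53 (adjusted p = 0.0253) with size factors. The count of higher co-chaperones as deposited was 4 without Tfam KO replicate 2, 1 without Control replicate 3 and 0 without any other single library. The count of lower ones fell to 0 on both scales without any of Tfam KO replicates 2 and 3 and Control replicates 1 and 3, and was 2 with size factors without Tfam KO replicate 1 or Control replicate 2.

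In the CCT ring and prefoldin, which fold actin and tubulin, 13 genes were tested and 1 was higher as deposited, Cct2, at 119, 95.4 and 136 FPKM in Tfam KO against 62.0, 68.0 and 70.5 FPKM in Control (0.78, limma adjusted p = 0.0141). With size factors Cct2 had 0.45 (adjusted p = 0.0508), and 0 of 13 were called, with 4 higher at an unadjusted p under 0.05 and 1 called higher by limma-voom. The list's median was 0.53 as deposited and 0.20 with size factors. Vbp1, a prefoldin subunit, had the value furthest below 0, -0.48 (adjusted p = 0.377). The count of higher genes as deposited was 9 of 13 without Tfam KO replicate 2 and 0 without any other single library.

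The 5 tested members of the other small heat shock proteins gave 0 calls on either scale by limma or limma-voom (1 higher as deposited and 2 lower under size factors at an unadjusted p under 0.05) and a median of 0.00021 as deposited and -0.32 with size factors. Hspb2, which lies next to Cryab, was measured at 23.2, 12.3 and 16.1 FPKM in Tfam KO and 25.6, 14.4 and 26.8 FPKM in Control (log2 fold change with size factors -0.67, limma adjusted p = 0.143), and Hspb3 had -0.43 (adjusted p = 0.123). Without Tfam KO replicate 2, 2 of the 5 were called higher as deposited and 1 lower under size factors, and without Control replicate 2, 1 was lower with size factors. Over the 77 tested genes of all these cytosolic lists together, 2 were higher and 1 lower as deposited, 0 were higher and 1 lower with size factors, and 0 were called on both scales (7 higher and 14 lower with size factors at an unadjusted p under 0.05, and 1 higher and 4 lower by limma-voom). Over all tested genes, 1.99% were higher and 0.953% lower on both scales.

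Genes of the mitochondrial matrix and endoplasmic reticulum lists did give calls in the same libraries. Of 11 chaperones and proteases of the mitochondrial matrix, 5 were higher as deposited and 4 with size factors, and those 4 rose on both scales: Lonp1, Hspa9, Dnaja3 and Hspd1. Hspa9, the mitochondrial Hsp70, had a log2 fold change of 1.34 with size factors (limma adjusted p = 0.000298) beside 0.17 for its cytosolic relative Hspa8. The matrix protease Lonp1 had 1.52 (adjusted p = 0.000111) and the J-domain partner of Hspa9, Dnaja3, 0.77 (adjusted p = 0.00444). The chaperonin Hspd1 had 0.66 and was close to the threshold (adjusted p = 0.0494); 3 of the 11 were called with size factors when any of Tfam KO replicates 2 and 3 and Control replicates 1 and 3 was left out, and as deposited 3 were called without Control replicate 1 and 7 without Tfam KO replicate 2. Of 15 listed genes of the endoplasmic reticulum, 1 rose (Herpud1, 1.20 with size factors, limma adjusted p = 0.00147) and 1 fell (Sdf2l1, -1.29, adjusted p = 0.000709). Herpud1 is a degradation factor and not itself a chaperone. Without Tfam KO replicate 2, 2 of the 15 were higher as deposited. The plot by list shows the members among the lists without a call on both scales.

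**Figure D4:**
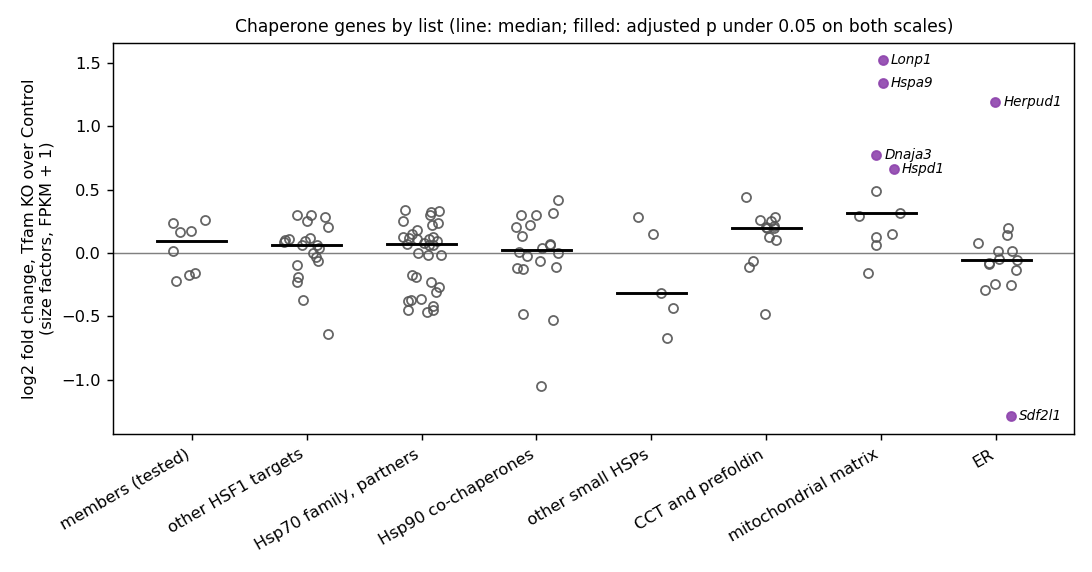
Log2 fold change of FPKM + 1 with size factors, Tfam KO over Control, for each tested gene of each list, with a line at the list's median and filled points for genes past an adjusted p of 0.05 on both scales. The 8 tested members have a median of 0.093 and no filled point, whereas 4 mitochondrial and 2 endoplasmic reticulum genes are filled.

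Ratios within a library compare the compartments without any scaling. Hspa9 over Hspa8 was 0.516, 0.502 and 0.521 in Tfam KO and 0.204, 0.249 and 0.229 in Control, 2.27-fold higher in Tfam KO with no overlap. This was the smallest p that 3 against 3 libraries can give (exact permutation test, two-sided, p = 0.1, adjusted p = 0.20 over 6 ratios), and the pairs were chosen after values were seen. The reticulum forms went the other way, relative to the cytosolic ones. Hspa5, the Hsp70 of the endoplasmic reticulum, over Hspa8 was 0.281, 0.271 and 0.287 in Tfam KO and 0.299, 0.324 and 0.380 in Control (exact permutation p = 0.1, adjusted 0.20).

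Hsp90b1, the Hsp90 of the endoplasmic reticulum, over Hsp90ab1 was 0.269, 0.255 and 0.283 against 0.293, 0.343 and 0.380 (exact permutation p = 0.1, adjusted 0.20), also lower in all Tfam KO libraries. For the mitochondrial Hsp90, Trap1, the ratio to Hsp90ab1 was 0.0446, 0.0330 and 0.0282 in Tfam KO and 0.0346, 0.0346 and 0.0306 in Control, which overlapped (exact permutation p = 0.9). Hspb2 over its neighbour Cryab was 0.113, 0.0809 and 0.124 against 0.215, 0.113 and 0.211, overlapping because Control replicate 2 lay among the Tfam KO libraries (exact permutation p = 0.3, adjusted 0.45).

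**Figure D5:**
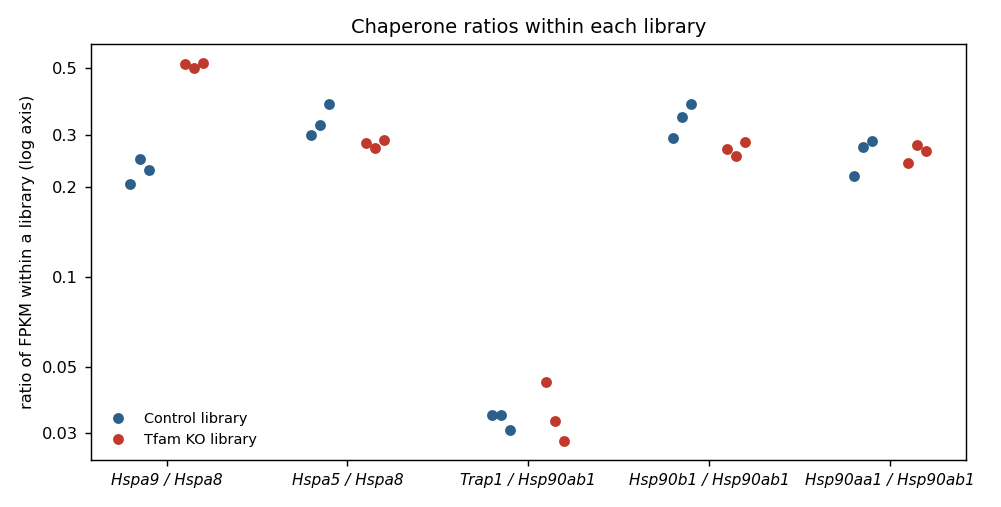
Ratio of the FPKM of 2 chaperone genes within each library on a log axis, with Control in blue and Tfam KO in red, 3 libraries each. Hspa9 over Hspa8 lies near 0.5 in Tfam KO and between 0.204 and 0.249 in Control, while Hsp90aa1 over Hsp90ab1 and Trap1 over Hsp90ab1 overlap.

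Muscle proteins that small heat shock proteins bind were counted as well. Of 8 tested client genes, 0 were called as deposited (2 higher at an unadjusted p under 0.05) and 2 were lower with size factors and by limma-voom. These were Ttn, the giant sarcomere spring (-0.40, limma adjusted p = 0.245 as deposited, and -0.72, adjusted p = 0.0362 with size factors), and Synpo2, a Z-disc protein (-0.32, adjusted p = 0.323, and -0.60, adjusted p = 0.0224). Leaving out 1 library brought that count with size factors to 1 (Tfam KO replicate 1, Control replicate 1 or 2) or 0 (Tfam KO replicate 2 or 3, Control replicate 3), and without Tfam KO replicate 2, 2 of 8 were higher as deposited.

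Immediate early genes, which respond within minutes to many stimuli, handling of tissue included, were listed because they can move together with inducible heat shock genes. Of 16 tested, 4 were higher as deposited, 3 higher and 2 lower with size factors, and 3 rose on both scales: Fos (1.93 ± 0.405 to 6.66 ± 2.33 FPKM, SD, n = 3), Fosb (0.223 ± 0.145 to 1.89 ± 0.909 FPKM) and Atf3 (3.77 ± 0.437 to 8.73 ± 0.392 FPKM). Their log2 fold changes with size factors were 1.09 (limma adjusted p = 0.0405), 1.07 (adjusted p = 0.0333) and 0.75 (adjusted p = 0.0169). Fosb averaged 0.223 FPKM in Control and reached the filter only through Tfam KO, so its call is not independent of the filter. With size factors 0 of 16 were called higher when Tfam KO replicate 2 or Control replicate 1 or 3 was left out, 1 without Tfam KO replicate 3 and 2 without Control replicate 2. The count of lower genes with size factors then ran from 0 to 3.

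The precision for single members also depends on near-identical copies, and how the authors counted reads that fit several genes was not given in the sources used here. Of the 50-base stretches of the longest transcript in GENCODE vM21, 66.3% for Hspa1a and 62.3% for Hspa1b occurred in another gene too, mostly in each other. The share was 52.7% for Hspa8 (mostly the pseudogene Gm15459), 58.5% for Hsp90aa1 (mostly Gm12346) and 51.6% for Hspb1 (Hsp25-ps1). It was 19.0% for Cryab (its neighbour Hspb2), 4.49% for Hsp90ab1, 1.40% for Hspb7, 0.441% for Dnajb1 and 0% for Hsph1. Values of Hspa1a, Hspa1b, Hspa8, Hsp90aa1 and Hspb1 are therefore uncertain in level, whereas those of Hsph1, Dnajb1, Hspb7 and Hsp90ab1 rest almost wholly on sequence of their own.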

How the data were processed

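Each library came as a list of 23284 genes. The deposited values were log2(FPKM + 1) made by the authors, a unit worked out from the values and the FPKM label. Per the submitters' processing notes, CASAVA 1.8.2, TopHat2 2.0.7, HTSeq 0.5.3 and mm9 were used, their roles not being stated. How FPKM was computed, with which annotation and strand setting, was not given in the sources used here. FPKM steps gave the library totals, and with them all 17876 genes above 0 gave whole reads within a tolerance of 1e-04, known up to a whole factor per gene. Such reads carry no molecular identifiers.

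Tfam KO and Control (3 pools each, separate pools per the labels) were compared with limma 3.58.1 (R 4.3.3) on log2(FPKM + 1) of 10807 genes, those whose mean over the libraries reached 1 FPKM, variances moderated with a trend, two-sided, with Benjamini-Hochberg adjustment and a threshold of 0.05. In the fit as deposited, moderation replaced each gene's own variance by the trend over all genes (prior degrees of freedom infinite). With size factors each gene's own variance counted as well (prior degrees of freedom 6.14). Calls as deposited and with size factors thus differ in this as well as in scale. A fold change of FPKM + 1 understates low genes. A gene is said to have risen or fallen only where it passed both as deposited and with size factors, in the same direction. Alternatives were another scale, pseudocount (0.1), filter, variance model, limma-voom on reads, the replicate number as a block, and each library left out. The fit was tested on simulated data. Exact permutation tests used SciPy 1.17.1. Named were all members, Hsf1, Hsf2 and Tfam, from each list up to 4 genes past both thresholds or else the 1 or 2 with the largest size-factor change, and the 3 genes nearest in profile to each of 2 members. The members and lists were chosen with earlier results of these data known. Promoters came from RefSeq (GRCm38.p6), matched by symbol.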

Additional observations from a re-analysis of the deposited data

How the results depend on the processing

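The count of members called higher was 0 as deposited. It became 1 of 8 with a pseudocount of 0.1 (Hsp90ab1, limma adjusted p = 0.0464), where 6.36% of all tested genes were called higher, and ranged from 0 to 3 when each library was left out. The 3 came without Tfam KO replicate 2 (Hsp90ab1, Hspa8 and Hsph1, adjusted p = 0.0318, 0.0396 and 0.0342), where 21% of all tested genes were called higher. With the replicate number as a block, 4 of 8 were higher (Hspa8, Hsp90aa1, Hsp90ab1 and Hsph1), where 19.3% of all tested genes were, and 0 with the block and size factors. The block as deposited also called 5 of 21 other HSF1 targets, 8 of 34 Hsp70 partners, 6 of 20 Hsp90 co-chaperones, 8 of 13 CCT and prefoldin genes and 1 of 5 other small heat shock proteins higher. With the block and size factors, 1 HSF1 target, 2 Hsp90 co-chaperones and 1 other small heat shock protein were lower. In that fit 1 CCT or prefoldin gene was higher, and 2.57% of all tested genes were called higher and 3.9% lower. At a mean of at least 5 FPKM, 2 Hsp70 partners were higher as deposited. Same-numbered libraries deviated together by r = 0.36, 0.068 and 0.16 with size factors, and Tfam KO replicate 3 correlated best with Control replicate 2 (0.25), so the numbers were not taken as pairs. No alternative called a member lower. Hspa1a and Hspa1b entered only the fits without a filter, so the other alternatives could not have called them.

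The log2 fold changes of Hspa8, Hsp90aa1, Hsp90ab1 and Hsph1 stayed positive in all 23 alternatives (0.14 to 0.62, 0.16 to 0.75, 0.15 to 0.71 and 0.041 to 0.71). Alternatives that changed only the filter, the variance trend or the block returned the same fold change, so their sign was fixed in advance. Those of Dnajb1, Hspb1 and Hspb7 as deposited were smaller than the 0.28 of the median gene and turned negative with other scales. They were -0.22, -0.18 and -0.16 with size factors, with the block and size factors, and with no filter and size factors (chosen after seeing the data). With the upper quartile scale they were -0.21, -0.16 and -0.15, with a pseudocount of 0.1 and size factors -0.25, -0.18 and -0.16, and with limma-voom -0.27, -0.18 and -0.15. With size factors and each library left out in turn (Tfam KO replicates 1 to 3, then Control replicates 1 to 3), Dnajb1 gave -0.34, -0.16, -0.16, -0.20, -0.29 and -0.18, and Hspb7 gave -0.14, -0.33, -0.0093, -0.12, -0.17 and -0.19. Hspb1 gave -0.26, -0.39, -0.14, -0.17 and -0.22 in the same order, Tfam KO replicate 3 aside, without which it stayed above 0. Dnajb1 as deposited was -0.067 without Tfam KO replicate 1 and -0.012 without Control replicate 2. Cryab with size factors was -0.14, -0.091 and -0.053 without Tfam KO replicates 1 and 2 and Control replicate 3. None of these values passed the threshold. Over all tested genes, 671 were higher and 125 lower as deposited (84.3% of calls higher), against 215 and 281 with size factors (43.3%). Hspa1a rested on only 1 to 13 reads per library. The parts of depth, of a low level and of sequence shared with Hspa1b in that number were not tested.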
